A study of Mus musculus with 24 samples.

Results

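The genes of mouse chromosome 3 were followed along their position in melanomas of 4 Nras genotypes. A gene was taken when the deposited annotation placed all of its exons on chromosome 3, when it reached at least 1 CPM (read counts scaled to a common library total) in at least 6 of the 24 libraries, and when it lay more than 1 Mb from Nras, the engineered gene, which sits at chr3:103058285-103067914 on the plus strand (mm10). Of 1145 genes listed on chromosome 3, 770 met these conditions, out of 15378 genes with the same level in a table of 24421. A cluster of 36 of them between 92 and 94 Mb, which encodes proteins of the outer epidermis, was kept apart, and the other 734 are called the chromosome 3 members. None of the 770 reached the level through 1 genotype only. Chromosome 3 was selected on its values in these same 24 tumours, namely the median shift of its genes by tumour and genotype, so those shifts and the counts of genes over the chromosome are given as a description. Just inside the level threshold lay 4933401H06Rik and Rnu73b, with a sixth-highest value of 1.03 and 1.05 CPM, and just outside lay Rpl34 and Adh6a, with 0.967 and 0.920 CPM. The members closest to the stretch left out around Nras were Slc22a15 on one side, 1.13 Mb from the Nras start, and Lrig2 on the other, at 1.39 Mb.

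The tumours came from TN mice (Tyr::CreERT2; LSL-Nras) on a C57BL/6 background, 6 each from TN61H/H, TN61L/L, TN61K/K and TN61R/R animals, which were homozygous for an Nras allele that, once a stop cassette (LSL) is cut out by Cre, encodes NRAS with histidine (H), leucine (L), lysine (K) or arginine (R) at codon 61. All mice were painted with 20 mM 4-hydroxytamoxifen on postnatal days 1 and 2, and the study's methods add a dose of ultraviolet B on postnatal day 3. Cre is driven by the Tyr promoter, so the Nras allele was switched on in melanocytes only, while the sequenced RNA came from whole ground tumours with their host cells. The H, L and K alleles were made by CRISPR in TN61R/R zygotes and backcrossed to TN61R/R, and both sexes were used. The titles carry a code, 61H in all TN61H/H, 61L in all TN61L/L and 61K in all TN61K/K tumours. The TN61R/R titles carry the codes 61K, 61L or 61P and none carries 61H. What the code marks is not in the labels. Genotype and code, and so any breeding line it marks, cannot be told apart between TN61H/H tumours and those of any other genotype. The same holds between TN61L/L and TN61K/K tumours. Ages are not in the labels.

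Genes of one chromosome share its copy number but mostly belong to unrelated pathways, and clusters of related genes, such as the epidermal one, are the exception. DNA copy number was not analysed here. Nras itself encodes a small GTPase that signals to the RAF and PI3K pathways, and the mouse chromosome that holds it also carries Pik3ca, the catalytic subunit of a PI3 kinase, Fbxw7, a ubiquitin ligase that marks MYC and cyclin E for destruction, Mcl1, an antiapoptotic BCL2 relative, and Notch2.

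The 250 bases upstream of 4 members are shown because these genes changed in the comparisons below, Igsf3 and Fnip2 upwards and Dkk2 and Ddit4l downwards in TN61H/H tumours. They come from RefSeq (GRCm38.p6, the assembly also called mm10), are written 5′ to 3′ on the strand of the gene and end at its start, at chr3:101376875-101377124 (plus) for Igsf3, chr3:79567680-79567929 (minus) for Fnip2, chr3:132085042-132085291 (plus) for Dkk2 and chr3:137623422-137623671 (plus) for Ddit4l. Capitals mark matches, on both strands, to any of 4 short motifs, namely the GC box (letters GGGCGG), the CAAT box (letters CCAAT), the TATA box (letters TATAAA) and the E-box (letters CACGTG).
Igsf3: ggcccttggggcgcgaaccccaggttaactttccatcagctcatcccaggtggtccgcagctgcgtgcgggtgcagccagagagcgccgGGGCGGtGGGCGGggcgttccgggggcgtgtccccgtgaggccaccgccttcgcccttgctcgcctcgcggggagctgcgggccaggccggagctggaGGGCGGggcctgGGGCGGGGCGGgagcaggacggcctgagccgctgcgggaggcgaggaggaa
Fnip2: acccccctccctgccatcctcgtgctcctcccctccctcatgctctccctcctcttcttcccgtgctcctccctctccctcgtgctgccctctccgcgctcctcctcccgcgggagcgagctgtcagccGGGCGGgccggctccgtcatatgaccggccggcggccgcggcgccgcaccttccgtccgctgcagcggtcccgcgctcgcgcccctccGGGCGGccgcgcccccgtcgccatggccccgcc
Dkk2: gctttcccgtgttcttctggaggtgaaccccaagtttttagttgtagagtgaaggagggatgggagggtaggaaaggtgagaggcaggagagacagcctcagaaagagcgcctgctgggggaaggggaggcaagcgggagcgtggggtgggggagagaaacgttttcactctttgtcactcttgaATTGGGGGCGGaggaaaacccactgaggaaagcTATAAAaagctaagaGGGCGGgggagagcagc
Ddit4l: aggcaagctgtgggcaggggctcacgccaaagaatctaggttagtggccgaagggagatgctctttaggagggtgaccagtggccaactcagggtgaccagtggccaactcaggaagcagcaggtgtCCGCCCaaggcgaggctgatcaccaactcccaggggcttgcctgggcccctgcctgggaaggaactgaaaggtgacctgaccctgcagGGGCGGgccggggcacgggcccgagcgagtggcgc
Igsf3 held 5 GGGCGG matches, of which a pair overlap, and the other promoters held 2 each. Dkk2 also held 1 CCAAT match, read on the opposite strand and directly next to a GC box, and 1 TATAAA. None of the 4 held CACGTG. Over 32851 such windows of all genes, 32.7% held GGGCGG, 33.9% CCAAT, 12.4% TATAAA and 6.02% CACGTG, while over the 758 windows of the 584 of 770 genes with an entry the shares were 50.5%, 33.1%, 9.76% and 7.65%. The 770 were picked by expression level and the windows of all genes were not, so the shares cannot be read as particular to chromosome 3. A match is a run of letters and not a known binding site, and the members that rose and those that fell both carried the GC box.

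The libraries held 31.95 to 43.77 M counted reads. Titles of TN61H/H tumours 4 and 5 share a number, whether both came from the same mouse is not given, and they were counted as separate samples. The melanocyte marker sum over 10 genes (Mitf, Sox10, Dct, Pmel, Tyrp1, Tyr, Mlana, Kit, Ednrb and Slc45a2) was 776 ± 200 CPM in TN61H/H, 497 ± 63 in TN61L/L, 444 ± 55 in TN61K/K and 596 ± 186 in TN61R/R tumours (SD, n = 6 each). Sox10 and Mitf were present in every library, whereas Dct was at 0 in 3, Tyrp1 in 5 and Mlana in 1. The sum of 12 leukocyte markers was 282 ± 62 CPM in TN61H/H, 389 ± 98 in TN61L/L, 680 ± 389 in TN61K/K and 512 ± 135 in TN61R/R tumours (SD, n = 6 each), and 3 of the 12 were at 0 in at least 1 library, among them Cd3e in 1 and Ms4a1 in 4. In whole tumours, fewer cells of a type and less RNA per cell cannot be told apart. The labels do not say whether tumours came from separate mice, and a p-value then covers only tumour-to-tumour spread in this set. Column names were written without a separator for 6 libraries (TN61H/H 6, TN61L/L 6, TN61K/K 1, 3 and 6, TN61R/R 3) and with one for 18, and what the difference marks is not given.

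Chromosome 3 stood higher in a pair of TN61H/H tumours than in any of the other 22, TN61H/H 5 and 6, called tumours 5 and 6 from here on. The measure is the median, over the 734 members, of log2 CPM minus the gene's mean over all 24 libraries, so that 0 is the average tumour. It was 0.16, −0.02, 0.10, −0.06, 0.40 and 0.32 in TN61H/H tumours 1 to 6. The 6 TN61L/L tumours ran from −0.12 to 0.00, with a median of −0.06. The TN61K/K tumours ran from −0.09 to 0.08, with a median of −0.06, and the TN61R/R tumours from −0.12 to 0.02, with a median of −0.05. TN61H/H tumours 5 and 6 thus lay above every other tumour, TN61H/H 1 and 3 came next, and TN61H/H 2 and 4 lay within the range of the other genotypes.

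**Figure D1:**
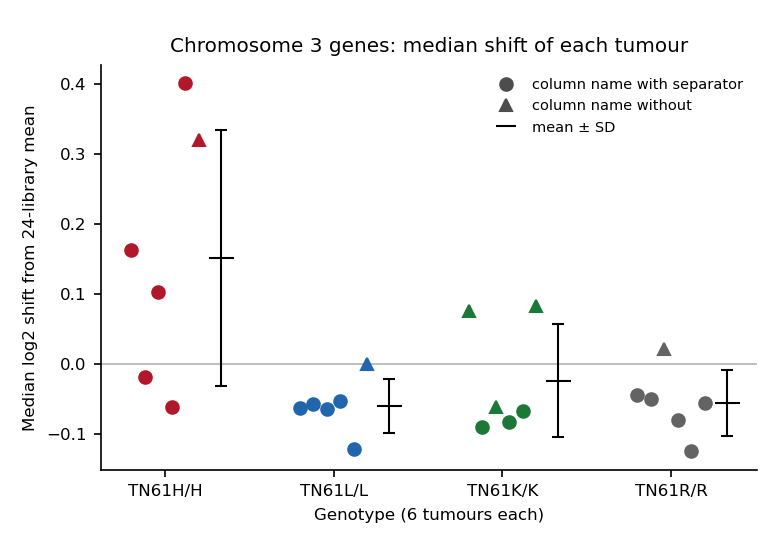
Median log2 shift of the 734 chromosome 3 members in each of 24 tumours (points, grouped by genotype, shaped by column name style), with the mean ± SD of 6 tumours beside each group. TN61H/H tumours 5 and 6 sit at 0.40 and 0.32, and no tumour of another genotype exceeds 0.08.

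The group averages were 0.15 ± 0.18 in TN61H/H, −0.06 ± 0.04 in TN61L/L, −0.02 ± 0.08 in TN61K/K and −0.06 ± 0.05 in TN61R/R tumours (SD, n = 6 each). The TN61H/H mean was 0.21 above TN61R/R, 0.17 above TN61K/K and 0.21 above TN61L/L, and without tumours 5 and 6 these differences were 0.10, 0.07 and 0.10. When members were averaged instead of taking their median, the differences were smaller, at 0.08 above TN61R/R, 0.02 above TN61K/K and 0.04 above TN61L/L. TN61K/K minus TN61R/R was 0.03 and TN61L/L minus TN61K/K −0.04. By column name style, the shift was 0.07 ± 0.13 over the 6 libraries without a separator and −0.02 ± 0.13 over the 18 with one. The 6 include tumour 6, at 0.32, and the rest of them ran from −0.06 to 0.08. The 18 include tumour 5, at 0.40. The part of column name style in the shift was not tested. Among the 18 alone TN61H/H lay 0.19 above TN61R/R, 0.20 above TN61K/K and 0.19 above TN61L/L.

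In tumour 5, 69.6% of the 734 members lay above their 24-library mean, against 51.1% of genes on the other autosomes in the same library. Tumour 6 had 72.5% against 48.7%. Tumour 5 was the highest of all 24 libraries for 208 members, or 28.3%, where 10.4% of all genes with the same level had it on top, and tumour 6 for 103 members, or 14.03%, against 6.56% of all genes. The members between the lower and upper quartiles ran from −0.24 to 0.72 in tumour 5 and from −0.03 to 0.66 in tumour 6, so the quartiles lay on both sides of 0 in both tumours. Relative to the TN61R/R mean, the median member stood 1.36-fold higher in tumour 5 and 1.29-fold higher in tumour 6.

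Chromosome 3 was the most raised of the 19 autosomes in both tumours. In tumour 5 the other autosomes ran from −0.18 on chromosome 1 to 0.24 on chromosome 6, and in tumour 6 from −0.17 on chromosome 4 to 0.19 on chromosome 1. Tumour 6 varied more between chromosomes than most, with chromosomes 8, 10, 11 and 15 below and 5 and 7 above 0. Over the 24 tumours the SD of the chromosome 3 shift was 0.13, the second largest after chromosome 6 with 0.16. Relative to the median of the other autosomes, TN61H/H exceeded TN61R/R by 0.19, TN61K/K by 0.16 and TN61L/L by 0.20.

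**Figure D2:**
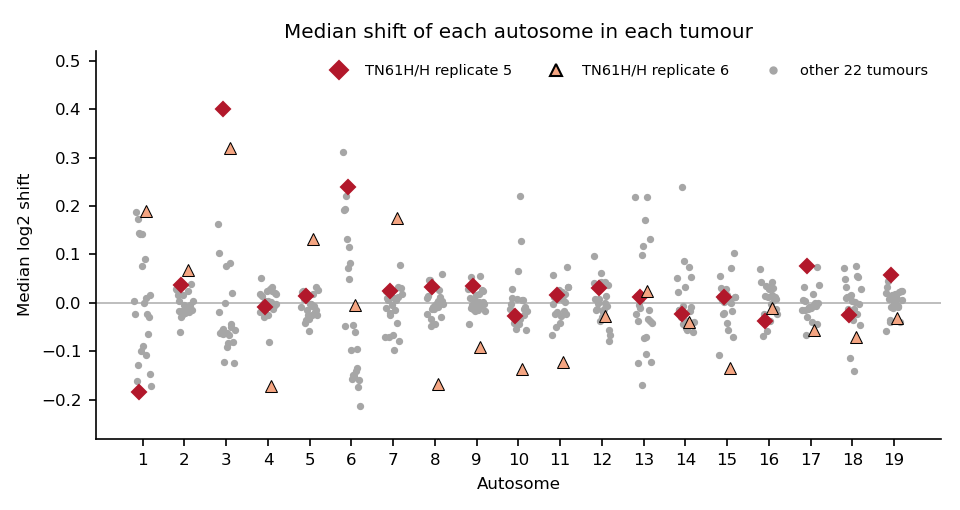
Median log2 shift (vertical axis) of the genes of each of 19 autosomes (horizontal axis) in TN61H/H tumour 5 (diamonds), TN61H/H tumour 6 (triangles) and the other 22 tumours (dots). On chromosome 3 the diamond (0.40) and the triangle (0.32) lie above all dots, the highest of which is 0.16.

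The rise of tumours 5 and 6 ran along nearly the whole chromosome. Split into 16 windows of 10 Mb, which held 13 to 131 members, tumour 6 lay above 0 in 16 of 16 and tumour 5 in 15 of 16. The exception was the window from 10 to 20 Mb, with 27 members, where tumour 5 stood at −0.09 and tumour 6 at 0.62. In the other 15 windows tumour 5 ranged from 0.24 to 0.49, while tumour 6 ranged from 0.06 between 70 and 80 Mb to 0.63 in the first window. Tumour 5 was the highest of 24 in 6 windows, tumour 6 in 7, TN61H/H 1 in 2 and TN61K/K 3 in 1. Windows under 20 members were 0 to 10, 20 to 30, 40 to 50 and 70 to 80 Mb, and their medians rest on 13 to 16 genes.

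The 3 best filled windows gave the clearest view of single stretches. Between 80 and 90 Mb, with 118 members, tumour 5 stood at 0.45 and tumour 6 at 0.14, while the other 22 tumours lay between −0.25 and 0.21. Between 90 and 100 Mb, with 131 members, the values were 0.49 and 0.24 against −0.12 to 0.18. Between 100 and 110 Mb, which holds Nras, 81 members gave 0.43 and 0.33 against −0.17 to 0.19. In the first of these windows tumour 6 fell inside the range of the others, and in the other pair both tumours lay above it. TN61H/H 1 lay above 0 in 16 of 16 windows too, from 0.01 between 80 and 90 Mb to 0.59 between 40 and 50 Mb.

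**Figure D3:**
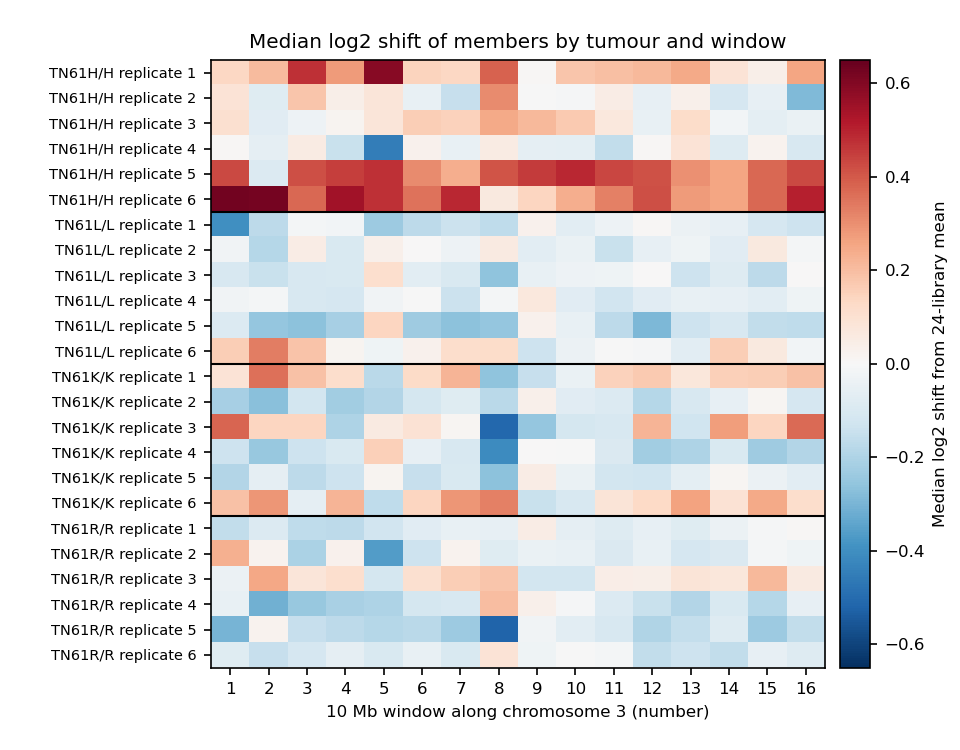
Colour shows the median log2 shift of the members in each of 16 windows of 10 Mb (columns, in order along chromosome 3) and each of 24 tumours (one line each, grouped by genotype). The lines of TN61H/H tumours 5 and 6 are red from end to end except for tumour 5 in the second window (−0.09), whereas lines of the other genotypes change colour along the chromosome.

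Averaged over 6 tumours, TN61H/H exceeded TN61R/R in each of the 16 windows, by 0.13 to 0.39. Without tumours 5 and 6 the same difference ran from −0.00 between 150 and 160 Mb to 0.30 between 20 and 30 Mb.

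In tumours 5 and 6 the shift was present at every distance from Nras that was examined. The 24 genes within 1 Mb of Nras, which are not members, stood at 0.46 in tumour 5 and 0.32 in tumour 6. The 63 members at 1 to 5 Mb stood at 0.44 and 0.24, the 122 at 5 to 10 Mb at 0.50 and 0.29, and the 549 beyond 10 Mb at 0.37 and 0.33. TN61H/H 1 had its largest value next to Nras, with 0.41, 0.26, 0.23 and 0.13 in the same order. For the 24 neighbours of Nras the group means were 0.22 ± 0.21 in TN61H/H, −0.07 ± 0.07 in TN61L/L, −0.10 ± 0.10 in TN61K/K and −0.14 ± 0.11 in TN61R/R tumours (SD, n = 6 each).

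In tumour 5 the weakly expressed members were shifted least. Split by mean level into 3 parts, the 245 members at 0.60 to 11.1 CPM had a shift of 0.06 in tumour 5 and 0.28 in tumour 6. The 244 members between 11.1 and 41.3 CPM had 0.40 and 0.36, and the 245 members from 41.6 to 5794 CPM had 0.49 and 0.29.

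Single genes were then compared between genotypes by edgeR over all 17214 genes tested, with Benjamini-Hochberg adjusted p below 0.05. Between TN61H/H and TN61R/R tumours, 12 of the 770 genes rose and 7 fell. That is 1.56% and 0.909%, where 1.26% and 0.761% of all genes tested rose and fell. The median log2 fold change over the 734 was 0.20, with 514 of them (70.0%) positive, against 0.01 and 51.5% over all genes. TN61H/H 5 was the highest library for 11 of the 12 that rose and TN61H/H 6 for the other, Ankrd13c. With both left out, none of the 19 passed, all 19 kept their sign, 65 of the 770 (8.44%) had an unadjusted p below 0.05 where 9.66% of all genes did, 0.206% of all genes passed, and the median was 0.04 against −0.03 over all genes. The count of 19 fell to 2, Igsf3 and Dkk2, among the 18 libraries of the same name style and to 2, again Igsf3 and Dkk2, in a fit of the 2 genotypes alone, where the calls over all genes, 348 in the fit of 24 libraries, numbered 111 and 30. Those 2 genes were 0.260% of the 770, where all genes gave 0.633% and 0.184%. Leaving out TN61H/H 4 gave 84 calls (10.9%) where all genes gave 1093 (6.30%). Leaving out TN61H/H 5 gave 3 (0.390%) where all genes gave 76 (0.438%). Leaving out TN61H/H 1, 2 or 6 gave 5, 4 and 9, leaving out TN61R/R 1, 2, 3, 4 or 5 gave 7, 7, 4, 11 and 3, leaving out TN61K/K 5 or 6 gave 9 and 10, and leaving out TN61L/L 2, 3 or 4 gave 12, 11 and 7. In these 13 fits all genes gave 66 to 291 calls. The share of the 770 ran from 0.390% (without TN61R/R 5) to 1.56% (without TN61L/L 2). The share of all genes ran from 0.380% (without TN61H/H 1) to 1.68% (without TN61K/K 6). The 770 lay below all genes without TN61H/H 6, TN61R/R 2, 3 or 5, TN61K/K 5 or 6 and TN61L/L 3 or 4. They lay above all genes without TN61H/H 1 or 2, TN61R/R 1 or 4 and TN61L/L 2.

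Igsf3, a membrane protein of the immunoglobulin superfamily, had the lowest adjusted p of the genes that rose. Its lowest, median and highest values were 174, 205 and 257 CPM in TN61H/H, 98.7, 127 and 146 in TN61L/L, 71.3, 122 and 133 in TN61K/K and 113, 121 and 144 in TN61R/R tumours. All 6 TN61H/H tumours lay above all 18 others. The log2 fold change was 0.75 ± 0.13 (SE) against TN61R/R (edgeR adjusted p = 0.00872) and 0.87 ± 0.13 against TN61K/K (adjusted p = 0.00343), and 0.75 ± 0.13 against TN61L/L, which did not pass (adjusted p = 0.196).

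Fnip2, which encodes a folliculin partner that acts on AMPK and mTORC1 signalling, spanned 143, 199 and 260 CPM in TN61H/H, 106, 136 and 207 in TN61L/L, 79.2, 103 and 130 in TN61K/K and 86.3, 114 and 143 in TN61R/R tumours. TN61H/H lay above all TN61K/K tumours and touched the top of the TN61R/R range. It rose by 0.80 ± 0.17 against TN61R/R (edgeR adjusted p = 0.0187). Trim2, a ubiquitin ligase of neurons, spanned 97.6, 251 and 348 CPM in TN61H/H, 135, 154 and 201 in TN61L/L, 89.5, 112 and 179 in TN61K/K and 65.2, 105 and 149 in TN61R/R tumours. Of the TN61H/H tumours, 5 lay above all TN61R/R tumours and TN61H/H 4 lay among them. The log2 change against TN61R/R was 1.21 ± 0.24 (edgeR adjusted p = 0.0142).

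Rbm15, an RNA-binding protein that guides the complex that writes N6-methyladenosine, spanned 53.1, 78.3 and 116 CPM in TN61H/H and 45.2, 46.5 and 70.1 in TN61R/R tumours, which overlap, and rose by 0.62 ± 0.15 (edgeR adjusted p = 0.0367). Mettl14, a core subunit of that complex named after its value was seen, rose by 0.56 ± 0.14 (adjusted p = 0.0415). Spg20, the gene of spartin, had 43.0, 52.8 and 67.3 CPM in TN61H/H against 36.5, 39.5 and 42.3 in TN61R/R tumours, with no overlap. Arnt, the shared partner of HIF1A and the aryl hydrocarbon receptor, rose by 0.40 ± 0.09 (adjusted p = 0.0276), and Kcna2, a voltage-gated potassium channel, by 2.45 ± 0.61 (adjusted p = 0.0393). Ankrd13c, Sclt1 (a protein of centriole appendages), Snx27 (an endosomal sorting protein) and Egfem1 made up the rest. When 1 library was left out in turn, the Ankrd13c call was lost in 15 of 24 fits. Rbm15 was lost in 14, Kcna2 in 13, and Spg20 and Arnt in 10 each.

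Dkk2, a secreted antagonist of WNT signalling, fell furthest. It had 2.48, 4.08 and 10.6 CPM in TN61H/H, 6.56, 16.7 and 22.4 in TN61L/L, 2.73, 41.3 and 119 in TN61K/K and 27.4, 49.6 and 92.1 in TN61R/R tumours. All TN61H/H tumours lay below all TN61R/R tumours, while 1 TN61K/K tumour lay among them. The log2 change was −3.27 ± 0.63 against TN61R/R (edgeR adjusted p = 0.0128) and −3.08 ± 0.63 against TN61K/K (adjusted p = 0.00716).

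Ddit4l, an inhibitor of mTORC1 signalling related to REDD1, had 1.39, 6.20 and 8.88 CPM in TN61H/H, 8.01, 12.2 and 26.8 in TN61L/L, 11.7, 14.3 and 22.1 in TN61K/K and 9.56, 11.9 and 31.0 in TN61R/R tumours. TN61H/H lay below all TN61R/R and all TN61K/K tumours, and the change against TN61R/R was −1.51 ± 0.37 (edgeR adjusted p = 0.0350). Sirpb1a, Sirpb1b and LOC100038947, neighbours of one family of myeloid surface receptors near 15 Mb, fell by 3.09, 1.98 and 1.94 on the log2 scale. They share sequence, so their counts may have been split between copies, and in TN61H/H tumours their medians were 0.284, 0.289 and 0.623 CPM against 3.12, 1.46 and 2.71 in TN61R/R tumours. I830077J02Rik also fell, by 1.23 ± 0.29 (SE; edgeR adjusted p = 0.0319). Its call was lost in 7 of 24 fits that left out 1 library, and the Ddit4l call in 9. For the receptors Sirpb1a, Sirpb1b and LOC100038947 the calls were lost in 5, 14 and 17 of these fits. The leukocyte marker sum moved the same way as these receptors, and its part was not tested.

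**Figure D4:**
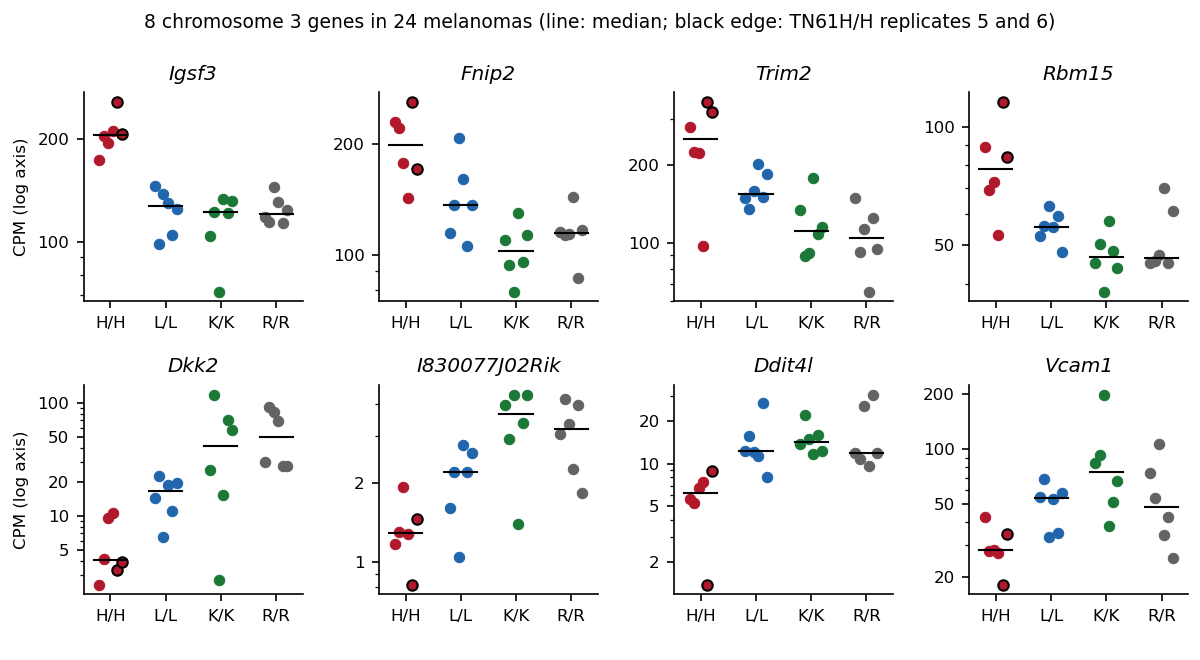
CPM on a log axis of 8 chromosome 3 genes in each of 24 tumours by genotype, with a line at each group's median and a black edge on TN61H/H tumours 5 and 6. Igsf3 in TN61H/H (174 to 257 CPM) lies above all other tumours, and Dkk2 in TN61H/H (2.48 to 10.6 CPM) lies below all TN61R/R tumours.

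Between TN61H/H and TN61K/K tumours, 80 genes rose and 31 fell by edgeR. The shares were 10.4% and 4.03%, where 4.29% and 5.07% of all genes tested rose and fell. The median over the 734 was 0.15 with 446 positive, against 0.01 over all genes. TN61H/H 5 was the highest library for 64 of the 80, TN61H/H 6 for 5 and any TN61H/H tumour for 79. Without both tumours 13 of the 80 and 11 of the 31 still passed, 3.12% of the 770 where 2.96% of all genes passed, and the median was 0.00 against −0.03 over all genes. The 13 included Igsf3, Fnip2, Tnik, Rbm15, Zfp704, Pogz, Gatad2b, Sort1, Snx27, Proser1, Gm20754 and 4930509J09Rik. The total of 111, 14.4% of the 770 where 9.36% of all genes were called, was 6 (0.779%) in the 18 libraries of the same name style, where all genes gave 0.958%, and 21 (2.73%) in a fit of the 2 genotypes alone, where all genes gave 2.72%. It was 32 (4.16%) without TN61K/K 3, 34 (4.42%) without TN61H/H 5, 48 (6.23%) without TN61H/H 1 and 69 (8.96%) without TN61K/K 2, where all genes gave 3.22%, 3.67%, 4.07% and 6.29%. TN61K/K 3 had the highest leukocyte marker sum, 1431 CPM, and its part was not tested. The comparison shares the TN61H/H tumours with the one before, in which 8 of the 12 that rose and 7 of the 7 that fell were also called here.

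Counted without a model, all 6 TN61H/H tumours lay above all 6 TN61R/R tumours for 6 of the 770 genes and below for 5, shares of 0.779% and 0.649% where all genes gave 0.65% and 0.605%. Against TN61K/K the counts were 20 and 6, or 2.60% and 0.779%, where all genes gave 1.26% and 1.27%. Against TN61L/L they were 11 and 0, or 1.43% and 0%, where all genes gave 0.299% and 0.254%.

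In the other 4 comparisons edgeR called none of the 770 genes, and 0% of all genes tested. Between TN61H/H and TN61L/L, 244 of the 770 (31.7%) had an unadjusted p below 0.05, 204 of them higher in TN61H/H, where 11.2% of all genes did. DESeq2 called 7 of the 770 there against 0.314% of all genes, with Lrrcc1, Sclt1, Isg20l2, Cdc42se1, Igsf3 and Mettl14 higher and 1 lower. The median log2 fold change over the 734 was 0.23 against 0.03 over all genes, and 0.08 against 0.00 without tumours 5 and 6. Without them 71 of the 770 (9.22%) had an unadjusted p below 0.05 by edgeR, where 5.52% of all genes did. Between TN61L/L and TN61K/K, 58 of the 770 (7.53%) had an unadjusted p below 0.05, where 8.09% of all genes did, and DESeq2 called 0, where it called 0.241% of all genes. Between TN61L/L and TN61R/R the unadjusted count was 29 (3.77%) where all genes gave 5.55%, and DESeq2 called Cldn11 alone, where it called 0.163% of all genes. Between TN61K/K and TN61R/R it was 40 (5.195%) where all genes gave 5.15%, and DESeq2 called 0, where it called 0.0139%.

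The members were also read by role, from lists that are a choice made with earlier results known. For RAS and growth signalling, 24 members had a median shift of 0.43 in tumour 5 and 0.15 in tumour 6, against −0.16 to 0.17 in the other 22. None passed between TN61H/H and TN61R/R. Against TN61K/K, Gnb4, a G protein beta subunit (0.88 ± 0.24, edgeR adjusted p = 0.0228), and Bcar3, an adaptor of integrin signalling (0.86 ± 0.23, adjusted p = 0.0233), rose and Vav3, a guanine nucleotide exchange factor (−1.13 ± 0.26, adjusted p = 0.0110), fell. Pik3ca had its highest value of 24 in tumour 5, at 298 CPM, and spanned 170, 216 and 298 CPM in TN61H/H against 143, 179 and 219 in TN61R/R tumours, which overlap, with a log2 difference of 0.33 ± 0.14 (adjusted p = 0.247). Spry1, a feedback inhibitor of RAS signalling, and Foxo1, a transcription factor held in check by AKT, were also highest in tumour 5 and differed by 1.05 ± 0.31 and 0.87 ± 0.26 against TN61R/R (adjusted p = 0.0746 and 0.0783).

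The 30 transcription and chromatin genes had a median shift of 0.52 in tumour 5 and 0.26 in tumour 6, above the range of −0.21 to 0.21 in the others. Of them, Arnt and Rbm15 rose against TN61R/R and 7 rose against TN61K/K. The 7 were Sox2, a transcription factor, Setdb1, which methylates histone H3, Phc3 of the Polycomb complex, Zbtb10, Rbm15, and the RNA and DNA binding proteins Ptbp2 and Fubp1. Against TN61R/R 1.56% of the 770 genes and 1.26% of all genes rose, and against TN61K/K 10.4% and 4.29%. The Fubp1 call against TN61K/K was lost in 16 of 24 fits that left out 1 library. Phc3 was lost in 7, Setdb1 in 5, Zbtb10 and Ptbp2 in 2 each, Sox2 in 1 and Rbm15 in 0. Sox2 spanned 17.5, 30.9 and 69.4 CPM in TN61H/H, 13.5, 17.0 and 41.0 in TN61L/L, 0.516, 6.07 and 16.5 in TN61K/K and 3.42, 9.90 and 26.5 in TN61R/R tumours. All TN61H/H tumours lay above all TN61K/K tumours, with a log2 change of 2.30 ± 0.60 (edgeR adjusted p = 0.0207). Fbxw7 and Tet2, an enzyme that oxidises methylcytosine, missed the threshold against both TN61R/R and TN61K/K.

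The 16 cell cycle genes had a median shift of 0.66 in tumour 5, with 16 of 16 above 0, and 0.36 in tumour 6, with 14 above 0. The other 22 tumours ran from −0.93 to 0.66, and none of the 16 passed in any comparison. Ccna2, cyclin A2, spanned 47.3, 62.5 and 110 CPM in TN61H/H against 15.6, 41.7 and 104 in TN61R/R tumours, and Ect2, a cytokinesis factor, 32.0, 40.4 and 60.3 against 11.3, 25.4 and 59.9. Both ranges overlapped. The 27 genes of protein synthesis, proteasome and respiration stood at 0.28 and 0.43, with 25 and 24 above 0, against −0.30 to 0.44 in the other 22. The 6 glutathione transferases, whose similar copies may share reads, stood at 0.58 and 0.26, against −0.73 to 0.75. For both lists tumours 5 and 6 lay inside the range of the others. None of either list passed in any comparison. The 14 survival and stress genes stood at 0.16 and 0.06, inside the −0.25 to 0.50 of the others. Of these genes only Ddit4l passed, and Mcl1 stood at 229, 245 and 263 CPM in TN61H/H against 199, 266 and 305 in TN61R/R tumours, which overlap.

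The 27 neural, melanocyte and ion channel genes stood at 0.49 in tumour 5 and 0.25 in tumour 6. Kcna2 rose against both genotypes, and Hps3, a gene of melanosome biogenesis, Tnik, a kinase linked to WNT signalling, and Sort1, a sorting receptor, rose against TN61K/K. Among 24 fits that left out 1 library, the Kcna2 call was lost in 13 against TN61R/R and 11 against TN61K/K. The Hps3 call was lost in 6, and the Tnik and Sort1 calls in 0. Kcna2 spanned 106, 640 and 1622 CPM in TN61H/H, 95.5, 201 and 570 in TN61L/L, 39.4, 131 and 362 in TN61K/K and 52.6, 121 and 238 in TN61R/R tumours. Tumour 5 held the highest value and tumour 6 the second. The melanocyte marker sum rests largely on Sox10, and none of its genes lies on chromosome 3. This sum was highest in tumour 5 too, at 1175 CPM, and lowest of the TN61H/H tumours in tumour 6, at 614 CPM. Its part was not tested.

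In tumour 5 the leukocyte and the matrix lists lay below 0. The 25 leukocyte and interferon genes stood at −1.07 in tumour 5, below the other 22 (−0.83 to 1.09), and at 0.14 in tumour 6. Against TN61K/K, 9 of them fell, with a list median of −1.15 against 0.01 over all genes: Cd2 and Cd53 of lymphocytes and leukocytes, Ctss (cathepsin S), Tlr2, Il6ra, Fcrls, Dapp1, Cd1d1 and Ifi44. In that comparison 4.03% of the 770 genes and 5.07% of all genes fell. The Cd1d1 and Ifi44 calls were lost in 10 and 16 of 24 fits that left out 1 library, and without TN61K/K 3 their changes were −1.33 and −1.03, against −2.22 and −1.75 with it. Ctss spanned 29.7, 41.6 and 88.9 CPM in TN61H/H against 64.7, 142 and 330 in TN61K/K tumours, which overlap, and changed by −1.58 ± 0.38 (edgeR adjusted p = 0.0147). The leukocyte marker sum was 221 CPM in tumour 5, the lowest of 24, and 352 CPM in tumour 6.

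The 20 matrix, vessel and stroma genes stood at −1.16 in tumour 5 and −0.33 in tumour 6, against −0.37 to 0.47 in the others. Vcam1, an adhesion molecule for leukocytes, spanned 18.2, 27.97 and 42.8 CPM in TN61H/H, 33.4, 54.3 and 68.8 in TN61L/L, 38.0, 75.4 and 199.9 in TN61K/K and 25.3, 48.5 and 107 in TN61R/R tumours. Vcam1 fell against TN61K/K by 1.58 ± 0.36 (edgeR adjusted p = 0.0112), as did Ctsk, the collagenase cathepsin K (−1.30 ± 0.30, adjusted p = 0.0121), Sfrp2, a WNT modulator of fibroblasts (−2.30 ± 0.72, adjusted p = 0.0469), and Dkk2. The Sfrp2 call was lost in 18 of 24 fits that left out 1 library, and the change was −3.53 without TN61H/H 4. The fibroblast marker sum was 19550 CPM in tumour 5 and 19980 in tumour 6, within the 16400 to 41720 of all libraries, and its part was not tested. The 8 S100 genes outside the epidermal cluster stood at −0.04 and 0.61, against −0.57 to 0.51 in the others, and none passed.

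**Figure D5:**
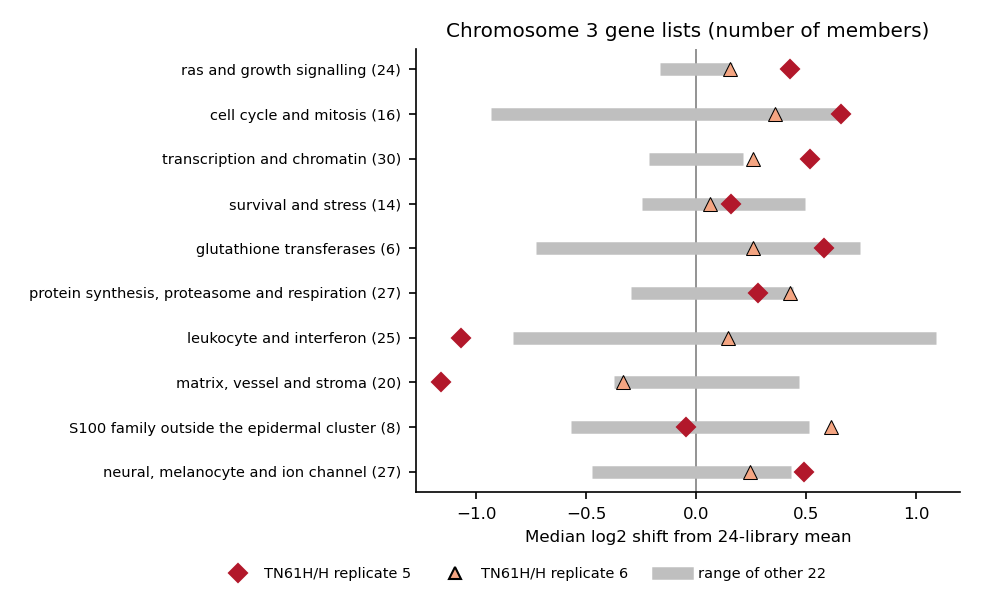
Median log2 shift of 10 gene lists on chromosome 3 (number of members in brackets) in TN61H/H tumour 5 (diamonds) and tumour 6 (triangles), with a grey bar for the range of the other 22 tumours. Transcription and chromatin genes lie above the bar in both (0.52 and 0.26), while leukocyte genes (−1.07) and matrix genes (−1.16) lie below it in tumour 5 alone.

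The epidermal cluster behaved unlike the rest of the chromosome. Its 36 genes, such as Lor (loricrin), Ivl (involucrin), Flg2 and the Lce family of the cornified envelope, ranged from −4.91 to 3.23 over the 24 tumours and stood at −4.88 in tumour 5 and 2.69 in tumour 6. The group means were −0.58 ± 3.54 in TN61H/H, 0.92 ± 2.86 in TN61L/L, 0.30 ± 3.70 in TN61K/K and −0.67 ± 3.04 in TN61R/R tumours (SD, n = 6 each), which differ by less than the spread. None of the 36 passed in any comparison by edgeR.

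The cluster moved with a sum of 10 keratinocyte markers, which ran from 3.90 to 7901 CPM, with 7 of the 10 at 0 in at least 1 library, and the part of this in the cluster's values was not tested. The tumours with the lowest sums were TN61L/L 1 at 3.90 CPM, TN61H/H 5 at 4.53, TN61R/R 2 at 4.71 and TN61K/K 6 at 4.75 CPM, and their cluster shifts were −4.85, −4.88, −4.91 and −4.85. Tchh, trichohyalin of the hair follicle, spanned 0.218, 51.4 and 3433 CPM in TN61H/H and 0.775, 431 and 8441 in TN61R/R tumours. S100a10 and S100a11, which lie in the same stretch but are expressed in many cell types, varied far less, with 88.9 to 218 CPM for S100a11 in TN61H/H and 121 to 157 in TN61R/R tumours.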

How the data were processed

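RNA from 24 melanomas was sequenced after ribosomal RNA depletion (150 bp paired reads on a HiSeq4000 or NovaSeq6000, which of them per library is not given). The authors aligned reads to mm10 with STAR, marked duplicates with Picard 2.17.11 and deposited raw counts per gene from featureCounts, with gene starts, ends and exon lengths. No source used here gives the strand setting of the counting, so reads of a gene cannot be separated from those of a gene overlapping it.

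Counts were scaled by TMM in edgeR 4.0.16 (R 4.3.3). Shifts used log2 CPM with a prior count of 2. Genes kept by filterByExpr were fitted in 1 quasi-likelihood model of 4 genotypes, with Benjamini-Hochberg adjustment over all 17214. DESeq2 1.42.0, other scalings, filters and libraries were alternatives. The steps were tested on simulated data. The members and lists were chosen with earlier results of these data known. Named genes were 24 set ones, up to 6 per direction and comparison by adjusted p, called list members, threshold and Nras neighbours, and the 4 epidermal genes of highest level. Other names, such as Mettl14 or the 13 genes that passed without tumours 5 and 6, were chosen after their values were seen. Of 24421 genes, 27 carry names turned into dates, which were left as they are. Libraries held 31.95 to 43.77 M counts, and intervals on single libraries would cover counting error only. Some genes are not reported here.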

Additional observations from a re-analysis of the deposited data

Results flagged for a closer look

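In 13 of 240 groups of 6 tumours examined, 1 sample lay far from the others. Chance gives about 1 such group in 20. The chromosome 3 median itself gave none.

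Over windows, TN61L/L 5 stood low between 110 and 120 Mb, at −0.29 against −0.07 to 0.01 in the other TN61L/L tumours, and TN61L/L 6 stood high between 130 and 140 Mb, at 0.16 against −0.10 to −0.05. The epidermal cluster was low in TN61L/L 1, at −4.85 against 1.38 to 2.74 in the other TN61L/L tumours, and so was its member Flg2, at −0.048 log2 CPM against 5.80 to 7.84.

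Among named genes in TN61H/H tumours, Trim2 was low in TN61H/H 4 (6.61 log2 CPM) and Ddit4l low in TN61H/H 5 (0.53). In TN61L/L tumours Sox2 was high in TN61L/L 6 (5.36), Cd1d1 high in TN61L/L 5 (5.46) and Ifi44 low in TN61L/L 1 (−0.22). In TN61K/K tumours I830077J02Rik was low in TN61K/K 4 (0.53) and Ankrd13c high in TN61K/K 1 (6.15). In TN61R/R tumours Sirpb1b was low in TN61R/R 4 (−1.09) and Sfrp2 low in TN61R/R 2 (3.17), all in log2 CPM.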

How the results depend on the processing

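None of the 54 called values of named genes that were refitted under every alternative changed sign. These values were picked because they passed in the fit of 24 libraries, and the alternatives reuse most of the same counts. A kept sign was therefore likely beforehand and is no independent support. Small differences in shift between TN61L/L, TN61K/K and TN61R/R did change sign. The setting without TN61H/H 5 and 6 was chosen after seeing the data. Averaging members instead of taking the median gave differences in shift of 0.047 for TN61L/L against TN61R/R, 0.025 for TN61H/H against TN61K/K and 0.035 for TN61H/H against TN61L/L, and TN61R/R tumours of the same title code gave 0.043 for TN61L/L against TN61R/R. Of the 770 genes, those called between TN61H/H and TN61R/R numbered 46 by DESeq2 (919 over all genes), 11 with no filter (255), 2 in 18 libraries (111), 47 with column name style as a covariate (683), 2 in the fit of 2 genotypes (30) and 0 without TN61H/H 5 and 6 (36). Between TN61H/H and TN61K/K they numbered 6 in 18 libraries (168), 21 in the fit of 2 genotypes (447) and 24 without TN61H/H 5 and 6 (518). DESeq2 gave 1 for TN61L/L against TN61R/R, where it called 0.163% of all genes, and 7 for TN61H/H against TN61L/L, where it called 0.314%. Groups that did not overlap numbered 6 for TN61H/H against TN61R/R and 7 against TN61L/L without scaling factors. The share of all genes in that setting is not given here, so these counts cannot be read as particular to chromosome 3. The cause was not tested.

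Leaving out each library in turn gave shift differences of 0.15 to 0.25 (TN61H/H against TN61R/R), 0.12 to 0.21 (against TN61K/K) and 0.16 to 0.25 (against TN61L/L), 0.01 to 0.05 (TN61K/K against TN61R/R), −0.02 to 0.01 (TN61L/L against TN61R/R) and −0.05 to −0.01 (TN61L/L against TN61K/K). Chromosome 3 genes called ranged from 3 to 84 (TN61H/H against TN61R/R), 32 to 160 (against TN61K/K) and 0 to 2 (against TN61L/L). The highest counts all came without TN61H/H 4. They were 10.9%, 20.8% and 0.260% of the chromosome 3 genes, where all genes gave 6.30%, 13.3% and 0.0288%. The lowest against TN61R/R was 0.390%, where all genes gave 0.456% without TN61R/R 5 and 0.438% without TN61H/H 5. The lowest against TN61K/K, without TN61K/K 3, was 4.16%, where all genes gave 3.22%. Calls over all genes thus also moved with the library left out. Of the calls of named genes, 249 of 1296 were lost when 1 library was left out, and 138 of 378 under the 7 other settings. Depth limits mainly genes near 1 CPM, such as the Sirpb1 family, which rest on few reads per library. No paired analysis was possible because replicate numbers follow accession order and pair no tumours.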
